A study of Mus musculus with 6 samples.

Results

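The forkhead genes make a large family of transcription factors, and the members followed here are all genes on the array whose symbol is Fox, a letter from a to s and a number. The rule found 43 genes, read by 77 probes, among the 19057 genes with a probe of 1 symbol, and all 43 symbols were unchanged in the RefSeq gene table. A gene with several probes, as 18 of the members had, was represented by its brightest probe on average. Total RNA from embryos of the outbred CD-1 stock, at embryonic day 13.5, was read on 1-colour Illumina bead arrays. Of the 6 libraries, 3 are titled tooth germ, from the lower molar, and 3 are titled oral tissue, from the mandible without teeth or bone. Tissue was pooled over several embryos for each library, the mice carry no named allele or treatment, and a tooth germ and an oral tissue library with equal numbers share a litter. The labels disagree on which 3 libraries hold the tooth germ: source names and tissue fields name the opposite 3 from those named by titles and descriptions.

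Libraries are named here by their titles, and if the source names are right every sign below turns. In the libraries titled tooth germ Msx1, a homeobox gene of dental mesenchyme, stood between 12.36 and 12.67 on the deposited log2 scale, against 10.78 to 11.41 in those titled oral tissue. Shh, the hedgehog ligand of dental epithelium, stood between 7.62 and 8.18 against 7.01 to 7.30. The muscle regulators Myod1 and Myog ran the other way, at 7.46 to 7.52 against 8.71 to 9.13 and at 7.90 to 7.95 against 9.21 to 9.70. As lists of markers, 6 of 12 dental epithelium genes rose and 1 fell, 5 of 11 dental mesenchyme genes rose, 6 of 9 macrophage and leukocyte genes fell, 1 of 11 cartilage genes rose, and 0 of 9 erythroid genes were called (limma, with 0 at an unadjusted p under 0.05). Over the array limma called 5.81% of genes, 2.39% higher and 3.42% lower. The unadjusted p was under 0.05 for 3262 of 19057 genes. Both tissues are mixtures of epithelium, mesenchyme, vessels and nerves, and fewer cells of a type cannot be told apart from less RNA per cell. The median of all values in the table was 7.01 and the upper quartile 7.84. These 2 levels are used below to say how bright a probe was, since no detection limit was used here, and precision is limited by having 3 arrays per tissue.

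Forkhead proteins bind DNA through a shared winged-helix domain, and subfamilies are lettered by the sequence of that domain. FoxF factors act in mesenchyme next to epithelium that makes hedgehog ligand, and their genes respond to that signal in the gut, the lung and the facial primordia. FoxC factors serve mesenchyme, vessels and the eye, FoxE1 the thyroid and the palate, and FoxI3 the placodes of teeth and hair. Several of the FoxO, FoxK, FoxN, FoxP and FoxJ factors are made in many cell types.

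The promoters of 3 members whose difference between the tissues matters below are printed to show what kind of start site these genes have. RefSeq promoter windows were available for 28 of the 43 members, in 33 windows of build GRCm38.p6. Foxf1, Foxe1 and Foxc2 had no window, so their promoters were not searched. Foxf2 and Foxi3 were higher in titled tooth germ, and Foxc1 is the gene next to Foxf2. The windows hold the 250 bases before the start on the + strand, at chr13:31625566-31625815 for Foxf2, chr13:31806396-31806645 for Foxc1 and chr6:70956356-70956605 for Foxi3. Capitals mark the GC box GGGCGG or its reverse complement, the motif of Sp-family factors.
Foxf2: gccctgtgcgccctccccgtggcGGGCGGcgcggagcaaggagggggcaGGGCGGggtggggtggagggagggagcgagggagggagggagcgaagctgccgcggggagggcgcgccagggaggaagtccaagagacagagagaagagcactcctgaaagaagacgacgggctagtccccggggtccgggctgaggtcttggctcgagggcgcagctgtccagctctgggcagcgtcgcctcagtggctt
Foxc1: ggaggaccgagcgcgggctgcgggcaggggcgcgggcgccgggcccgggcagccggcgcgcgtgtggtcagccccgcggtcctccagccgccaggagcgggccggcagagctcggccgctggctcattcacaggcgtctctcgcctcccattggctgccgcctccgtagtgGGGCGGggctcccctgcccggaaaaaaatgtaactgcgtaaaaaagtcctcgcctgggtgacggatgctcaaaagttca
Foxi3: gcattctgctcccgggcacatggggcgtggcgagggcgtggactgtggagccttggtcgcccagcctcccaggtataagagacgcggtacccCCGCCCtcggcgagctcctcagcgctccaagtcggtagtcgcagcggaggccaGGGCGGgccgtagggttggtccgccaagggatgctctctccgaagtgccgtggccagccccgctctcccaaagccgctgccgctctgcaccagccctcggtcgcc
All 3 are rich in G and C, at 71.6% for Foxf2, 70.8% for Foxc1 and 70.4% for Foxi3, against a median of 62% over the 33 forkhead windows and of 52.4% over all 32851 windows. They hold 21, 29 and 24 CpG dinucleotides, against a median of 16 for the forkhead windows and 6 for all. The GC box lay in 23 of the 33 forkhead windows and in 32.7% of all windows. The GLI motif TGGGTGGTC, the sequence bound by the hedgehog effectors, lay in 0 of 33 forkhead windows and in 0.225% of all, searched on both strands. With so rare a motif, 0 of 33 says little, and Foxf1 was not among the genes searched. The forkhead motif TGTTTAC lay in 1, that of Foxa1, and in 3.17% of all. A match or its absence describes these letters in this window and no more.

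Few forkhead genes distinguished the tooth germ from oral tissue, and Foxf1 did so by far more than the rest. The call is limma's, at an adjusted p under 0.05 over all genes, in a fit that leaves out the pairing by litter. Of 43 members 4 rose (Foxf1, Foxe1, Foxf2 and Foxi3), 1 fell (Foxc2) and 38 were not called in titled tooth germ. Over the array 5.81% of genes were called, 2.39% of them higher and 3.42% lower, and the members called made 11.6% of the family. Among members with a probe above the upper quartile 2 of 13 were called, against 9.88% of all genes that bright. With the litter as a block 6 rose and 3 fell, against 8.88% of all genes called (3.86% higher and 5.02% lower). The 4 added genes were Foxn3 and Foxp4, which were higher, and Foxq1 and Foxa1, which were lower. In the fit without the block, leaving out both libraries of any 1 litter left 2 members, Foxf1 and Foxe1, called higher. The count called lower was 0 without oral tissue library 3, tooth germ library 2, tooth germ library 3, litter 1 or litter 3, and 2 without oral tissue library 2.

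**Figure D1:**
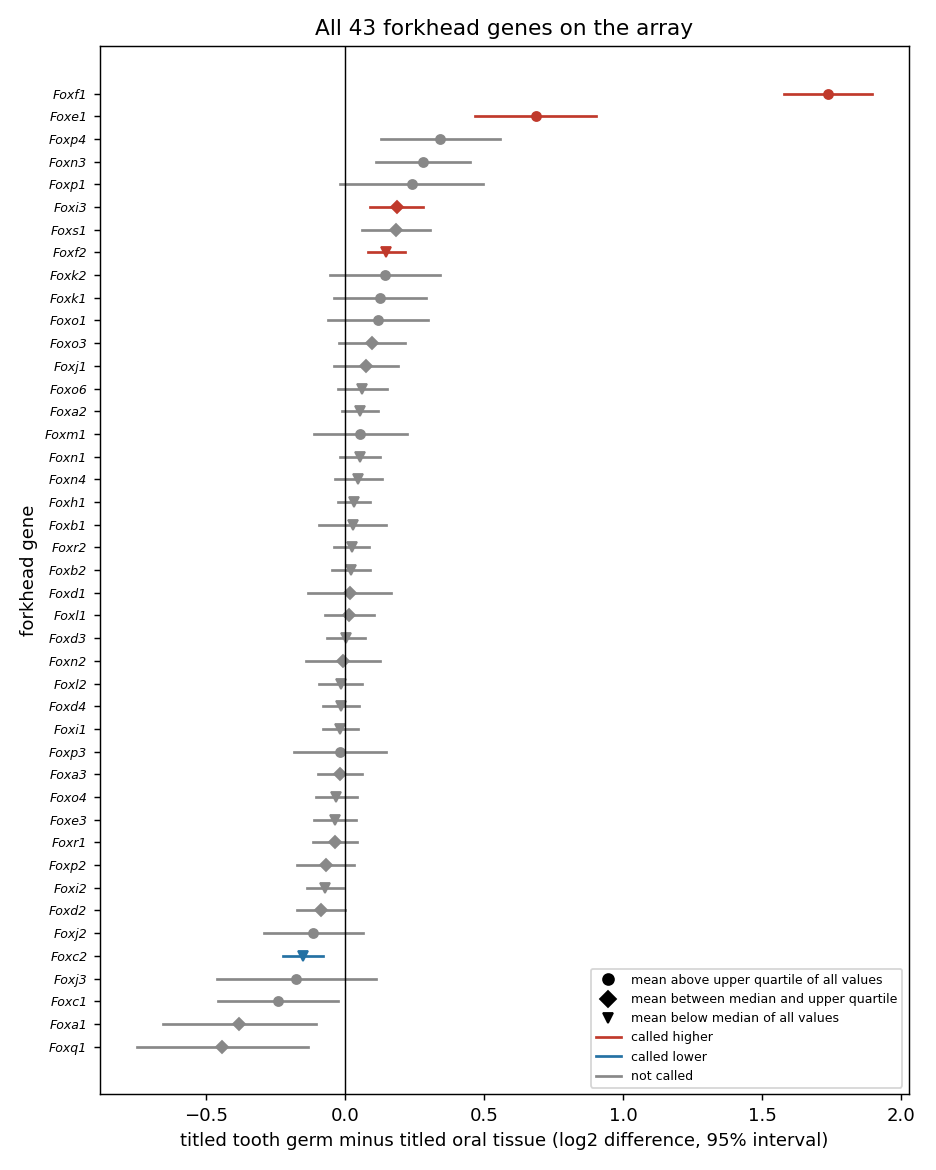
Difference of titled tooth germ minus titled oral tissue for each of the 43 forkhead genes, on the log2 scale, with its 95% interval from limma over 3 arrays per group. Colour gives the call without the litter as a block, and the marker shape gives the brightness of the probe. Foxf1 at 1.74 and Foxe1 at 0.69 lie apart on the right, and Foxq1 at -0.44 and Foxa1 at -0.38 lie farthest left without being called.

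The FoxF pair both rose, each read by 1 probe. Foxf1 read 7.51, 7.37 and 7.46 in the oral tissue libraries, in litter order, and 9.15, 9.15 and 9.24 in the tooth germ libraries. The 3 tooth germ libraries lay within 0.1 of one another, all above every oral tissue library. Its log2 difference was 1.74 (SE 0.072, 95% interval 1.58 to 1.89), or 3.33-fold, and within litters it was 1.65, 1.78 and 1.78. It was called in each of 17 alternatives, with differences from 1.70 to 1.78 and adjusted p-values from 1.4e-08 to 1.2e-04 (limma). Foxf2, its paralogue, which is needed for closure of the palate, read 6.90, 6.91 and 6.90 against 7.06, 7.05 and 7.04. These values lie at the median of the whole array, where the log scale may understate a fold, and they also do not overlap between the tissues. Foxf2 differed by 0.15 on the log2 scale (SE 0.030, 95% interval 0.083 to 0.22, adjusted p = 0.0121, limma) and was 0.17, 0.14 and 0.14 within litters. Its call was lost without oral tissue library 3 (adjusted p = 0.05) and without tooth germ library 1 (adjusted p = 0.0522), and without any 1 litter (adjusted p = 0.12, 0.0816 and 0.0926, limma).

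Foxe1 and Foxi3, both factors of surface ectoderm and its derivatives, rose as well, each read by 1 probe. Foxe1 read 7.88, 8.10 and 8.06 in the oral tissue libraries and 8.59, 8.60 and 8.91 in the tooth germ libraries. The groups were clear of each other, and tooth germ library 3 was the highest of the 6. Foxe1 differed by 0.69 on the log2 scale (SE 0.099, 95% interval 0.47 to 0.90, adjusted p = 0.0013, limma), or 1.61-fold, with 0.72, 0.49 and 0.84 within litters. It was called in each of 17 alternatives. Foxi3, a gene of ectodermal placodes that acts downstream of ectodysplasin, read 6.91, 6.91 and 6.99 against 7.04, 7.14 and 7.18. The groups did not overlap, but the gap between oral tissue library 3 and tooth germ library 1 was small and the signal dim. The log2 difference was 0.19 (SE 0.043, 95% interval 0.091 to 0.28, adjusted p = 0.0268, limma, and 0.0085 with the litter as a block). The call was lost without oral tissue library 1 or 2 (adjusted p = 0.0913 and 0.0822), without tooth germ library 2 or 3 (adjusted p = 0.0962 and 0.0992), and without litter 1, 2 or 3 (adjusted p = 0.0516, 0.203 and 0.0922, limma). Of 12 surface epithelium markers 6 rose and 1 fell, where 2.39% of all genes rose and 3.42% fell. The mean signal of these markers was 9.92 to 10.06 in titled tooth germ against 9.38 to 9.57 in titled oral tissue. The part of this shift in the differences of Foxe1 and Foxi3 was not tested.

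**Figure D2:**
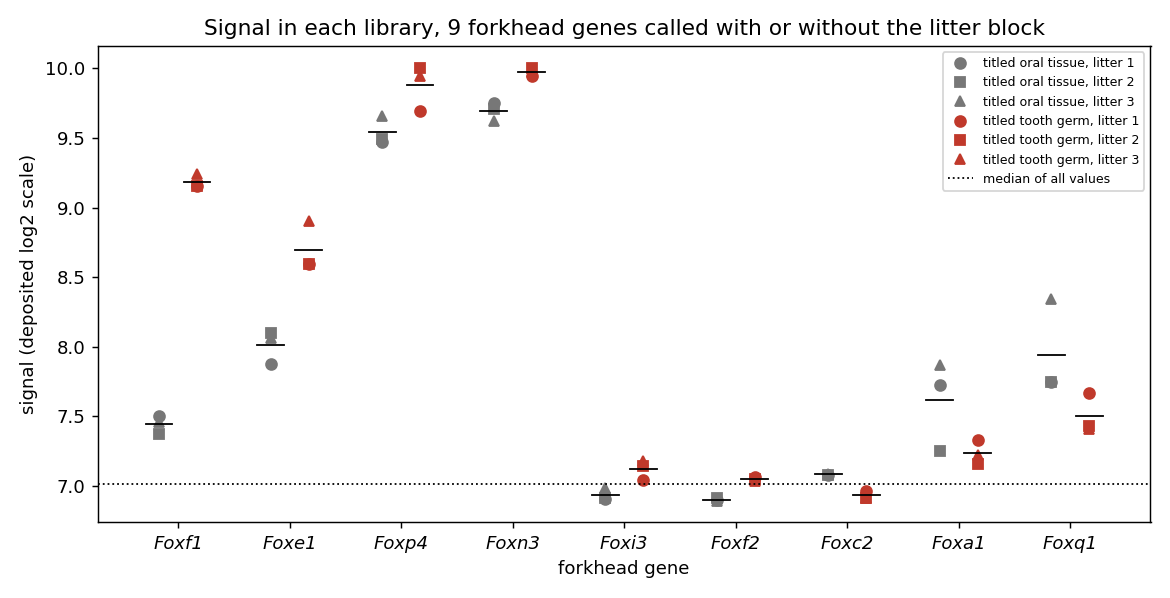
Signal on the deposited log2 scale in each of the 6 libraries for the 9 forkhead genes called with or without the litter block, grey for titled oral tissue and red for titled tooth germ, with marker shape for the litter and a bar at each group mean. The dotted line is the median of all values, 7.01. Foxf1 and Foxe1 separate widely, Foxi3, Foxf2 and Foxc2 separate by small steps near the dotted line, and Foxa1 overlaps.

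The remaining FoxI genes differed little. Foxi2 had a log2 difference of -0.069 (adjusted p = 0.247, limma). Foxi1, which controls ion-transporting cells of the ear and kidney, had -0.016, and the probes kept for both genes lay below the median of the array. The other Foxi1 probes, also dim, differed by 0.077 and 0.00014 (adjusted p = 0.319 and 0.999, limma). The first of them was nearly as bright as the probe kept, so the sign for Foxi1 depends on the probe. Foxe3, a lens gene, had a log2 difference of -0.035 at an equally dim probe, so the rise of Foxe1 was not seen in the other FoxE gene (95% interval -0.11 to 0.041).

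FoxC genes stood lower in titled tooth germ. Foxc2, a factor of lymphatic and vascular endothelium and of paraxial mesenchyme, read 7.08, 7.08 and 7.09 in the oral tissue libraries and 6.97, 6.92 and 6.92 in the tooth germ libraries. All 3 oral tissue libraries lay above all 3 tooth germ libraries, at a dim probe. Foxc2 fell by 0.15 on the log2 scale (SE 0.033, adjusted p = 0.0184, limma), or 1.11-fold higher in titled oral tissue. That call was lost without oral tissue library 3 (adjusted p = 0.0551), tooth germ library 2 (0.0948) or tooth germ library 3 (0.075), and without litter 1, 2 or 3 (adjusted p = 0.0674, 0.145 and 0.159, limma). Foxc1, a factor of neural crest mesenchyme of the head, read 7.88, 7.93 and 8.25 against 7.84, 7.66 and 7.84. The groups were apart by a narrow margin and the oral tissue library of litter 3 stood highest. Its difference of -0.24 (95% interval -0.45 to -0.023) did not pass (adjusted p = 0.23, limma, and 0.0787 with the litter as a block), and it was -0.12 without oral tissue library 3. Of 12 endothelium markers 1 fell, the receptor kinase Tek (-0.33, adjusted p = 0.0268, limma), where 3.42% of all genes fell. With the litter as a block 2 fell, against 5.02% of all genes. All differences in the list were negative, from -0.33 to -0.0065, with a median of -0.17. The unadjusted p was under 0.05 (limma) for 6 of the 12, against 3262 of all 19057 genes. The list's mean signal was 8.93 to 8.98 in titled tooth germ against 9.06 to 9.21. The part of the endothelium in the FoxC values was not tested. Foxs1, a gene of pericytes and sensory neurons, read 7.36, 7.39 and 7.41 against 7.60, 7.60 and 7.50 and was not called (0.18, adjusted p = 0.089, and 0.0688 with the litter as a block, limma). Of 9 pericyte and smooth muscle markers 1 rose and 2 fell, and of 10 neuron markers 3 fell. Over all genes 2.39% rose and 3.42% fell.

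Foxq1 and Foxa1, factors of endodermal and other epithelia, had negative differences in every litter and were not called without the litter as a block when all 6 libraries were used. Foxq1 read 7.74, 7.75 and 8.34 in the oral tissue libraries and 7.67, 7.43 and 7.41 in the tooth germ libraries. The groups did not overlap, and oral tissue library 3 stood well above the other two. The log2 difference was -0.44 (SE 0.14, adjusted p = 0.106, and 0.0448 with the litter as a block, limma), and it was -0.073, -0.32 and -0.93 within litters. Without oral tissue library 3 it was -0.24 (adjusted p = 0.188), and without both libraries of litter 3 it was -0.20 (adjusted p = 0.382, limma). For Foxa1 the oral tissue libraries read 7.73, 7.25 and 7.87 against 7.33, 7.16 and 7.22. Oral tissue library 2 lay below tooth germ library 1, so the groups overlapped. Foxa1 differed by -0.38 on the log2 scale (adjusted p = 0.119, and 0.0147 with the litter as a block, limma), with -0.40, -0.090 and -0.65 within litters. Without oral tissue library 2 it was -0.56 (adjusted p = 8.6e-04), and without both libraries of litter 2 it was -0.52 (adjusted p = 0.0058, limma). The other FoxA genes, Foxa2 and Foxa3, pioneer factors of endoderm, had log2 differences of 0.056 and -0.017 at dim probes.

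Several forkhead genes are chromosome neighbours, which the rule did not use. In the RefSeq gene order of GRCm38.p6, Foxf1, Foxc2 and Foxl1 follow one another on chromosome 8 with Mthfsd between the first and second, Foxq1, Foxf2 and Foxc1 are adjacent on chromosome 13, and Foxd2 and Foxe3 are adjacent on chromosome 4. On chromosome 8 Foxf1 rose, Foxc2 fell, and Foxl1, a gene of gut mesenchyme, stood at 7.04 ± 0.024 against 7.06 ± 0.059 (SD, n = 3, log2 difference 0.017, 95% interval -0.071 to 0.10). The 95% intervals of Foxf1 and Foxc2 lay on opposite sides of 0. Mthfsd, which was looked up after the members' values were seen, differed by 0.070 (adjusted p = 0.732), and Irf8, the gene on the far side of Foxf1, by -0.10 (adjusted p = 0.209, limma). On chromosome 13 the FoxF gene again was the one that rose, and its neighbours Foxq1 and Foxc1 had negative differences in all 3 litters. On chromosome 4 Foxd2 had a difference of -0.085 (adjusted p = 0.306, limma) and Foxe3 of -0.035.

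**Figure D3:**
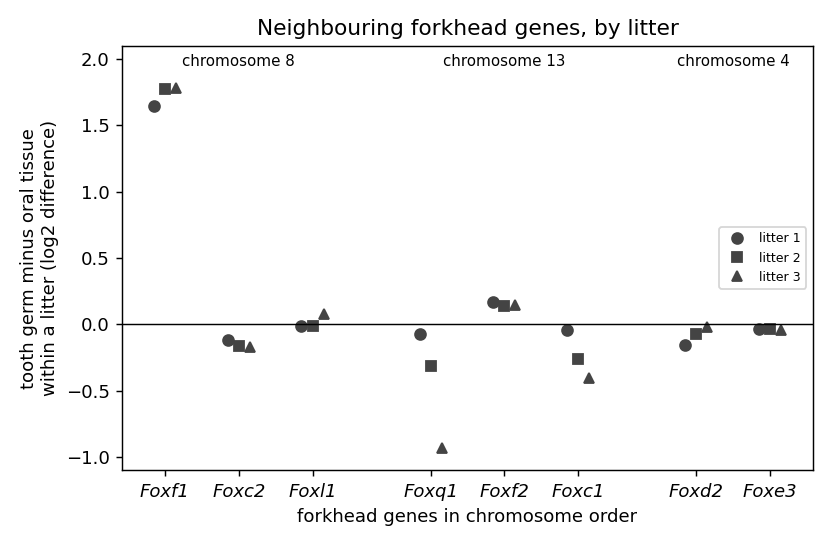
Difference between the 2 libraries of a litter, titled tooth germ minus titled oral tissue on the log2 scale, for 8 neighbouring forkhead genes in chromosome order, with 1 marker shape per litter. Foxf1 lies between 1.65 and 1.78 while its neighbour Foxc2 lies below 0 in all 3 litters, and Foxf2 lies above 0 between Foxq1 and Foxc1, which lie below it.

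No FoxN, FoxP, FoxO, FoxK or FoxJ gene was among the 5 called without the litter as a block, and Foxn3 and Foxp4 were called with it. Foxn3, a checkpoint-related repressor, read 9.75, 9.71 and 9.62 in the oral tissue libraries and 9.95, 10.01 and 9.98 in the tooth germ libraries. All tooth germ libraries were above all oral tissue libraries. The log2 difference was 0.28 (SE 0.076, adjusted p = 0.057, and 0.0306 with the litter as a block, limma), and its 2 dim probes differed by -0.0024 and 0.034. Foxp4, a repressor of lung and gut epithelium, read 9.47, 9.49 and 9.66 against 9.70, 10.00 and 9.95. The margin between oral tissue library 3 and tooth germ library 1 was narrow, and without tooth germ library 1 the gene was called (0.44, adjusted p = 0.0324, limma). Over all libraries the log2 difference was 0.34 (SE 0.098, adjusted p = 0.0693, and 0.0159 with the litter as a block, limma), and the other probes differed by 0.010 and 0.16. Foxp1, a relative active in many tissues, read 8.34, 8.54 and 8.38 against 8.43, 8.60 and 8.95, overlapping, with tooth germ library 3 apart from its group (0.24, 95% interval -0.018 to 0.50, and 0.097 without that library). Foxp2, the speech-related member, had a log2 difference of -0.069 at the chosen probe, and its 3 other probes differed by -0.12, -0.11 and -0.043, none called.

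Foxp3, the factor of regulatory T cells, read 9.87, 9.76 and 9.84 against 9.83, 9.77 and 9.82, so the tissues overlapped throughout (log2 difference -0.016, 95% interval -0.18 to 0.15). This was the reading of 1 of 4 Foxp3 probes. The other 3 had means of 7.01, 6.90 and 6.84, close to the median of the array, and differences of -0.038, -0.066 and 0.027. The probes of Foxp3 therefore disagreed on whether the gene gave a signal above the median, and none was called between the tissues.

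The FoxO genes, effectors that are held out of the nucleus by insulin and AKT signals, did not pass. Foxo1 read 8.72, 8.72 and 8.49 against 8.74, 8.80 and 8.74, or 0.12 higher on the log2 scale (95% interval -0.061 to 0.30), and Foxo3 had 0.096 (95% interval -0.023 to 0.22). In both genes all tooth germ libraries lay above all oral tissue libraries, by less than 0.1. Foxo4 and Foxo6 had differences of -0.031 and 0.063 at dim probes. The myogenic and metabolic repressors Foxk1 and Foxk2 had differences of 0.13 and 0.14, with adjusted p-values of 0.447 and 0.468 (limma). Foxk1 stood at 7.95 ± 0.056 in titled oral tissue and 8.08 ± 0.11 in titled tooth germ (SD, n = 3). In titled tooth germ 13 of 15 skeletal muscle markers fell, against 3.42% of all genes. Foxj2 and Foxj3, relatives of the cilium factor Foxj1, had differences of -0.11 and -0.17 (adjusted p = 0.543 and 0.568, limma). Foxj3 spread from 9.31 to 9.89 among the tooth germ libraries. Its next brightest probe, at a mean of 9.06, differed by -0.025, and the mean of all its probes by -0.040. Foxm1, which drives mitotic genes, read 8.32, 8.42 and 8.36 against 8.40, 8.53 and 8.33, or 0.056 higher on the log2 scale (95% interval -0.11 to 0.22).

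The other 25 members, none of them above the upper quartile of the array, had log2 differences from -0.085 to 0.18. The unadjusted p was under 0.05 (limma) for 2 of them, against 3262 of all 19057 genes. These 2 members are Foxs1 and Foxi2. The probes of 15 of these 25 members lay below the array's median, a range in which the log scale can shrink differences. Foxd3, a neural crest and glial factor, was among them, with 6.93, 6.94 and 6.92 in the oral tissue libraries and 6.91, 6.91 and 6.98 in the tooth germ libraries. Of 5 markers of Schwann cells and glia measured, Foxd3 included, 1 fell, where 3.42% of all genes fell. Over the whole family 25 differences were positive and 18 negative, with a median of 0.021, against 0.0026 over all genes. The 3 litters had the same sign for 55.8% of members and 41.3% of all genes. The tissues did not overlap for 14 members, 9 higher and 5 lower, where 23.1% of all genes did not overlap (11.9% higher and 11.2% lower).

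Genes that act with these factors were followed as lists, chosen with earlier results of these data known. Of 16 hedgehog pathway genes measured 3 rose, 3 fell and 10 were not called, with a median of 0.037. The called share was 37.5%, against 5.81% of all genes. Without oral tissue library 3 or tooth germ library 1 the count called was 3, and without litter 1 it was 2. The ligand Shh rose by 0.78, the receptor and target Ptch1 by 0.41 (8.71, 8.79 and 8.49 against 9.03, 8.97 and 9.23) and the effector Gli3 by 0.43 (adjusted p = 0.0022, 0.0295 and 0.0153, limma). Foxf1 rose by 1.74 in the same libraries, and a link between it and the pathway was not tested. The target and effector Gli1 read between 6.79 and 6.91 in all libraries and had a difference of -0.013 at a dim probe. Hhip, another gene of the list, differed by -0.046 at a probe above the median and was not called (adjusted p = 0.727, limma). The co-receptor Cdon, which muscle precursors also make, fell by 1.00, the ligand release factor Disp1 by 0.43 and the Schwann cell ligand Dhh by 0.20 (adjusted p = 2.2e-04, 0.0044 and 0.0227, limma). Skeletal muscle markers averaged 8.80 to 8.99 in titled tooth germ and 10.10 to 10.67 in titled oral tissue, and their part in the value of Cdon was not tested.

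Of 12 ectodysplasin and activin genes, which act upstream of Foxi3 in placodes, 4 rose, 0 fell and 8 were not called, with a median of 0.18. The called share was 33.3%, against 5.81% of all genes. The activin subunit Inhba rose by 1.98, the activin antagonist Fst by 0.73 and the ectodysplasin adaptor Edaradd by 0.46, from 7.32, 7.41 and 7.28 to 7.82, 7.89 and 7.68 (adjusted p = 1.8e-05, 0.0015 and 0.0016, limma). Nfkbia, a target of the NF-kappaB arm of this pathway, was the fourth. The ligand gene Eda and the receptor gene Edar had differences of 0.054 and -0.016 and were not called.

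In the lists tied to FoxO, FoxM1 and FoxJ1, 5.26%, 0% and 15.4% of genes were called, against 5.81% of all genes. Of 19 regulators and targets of FoxO 1 fell, the kinase gene Sgk1 (-0.53, adjusted p = 0.0345, limma), and it was lost without any of oral tissue libraries 1 and 2 or tooth germ libraries 1, 2 and 3, and without litter 1 or 2, when the count was 0. Of 12 mitotic targets of FoxM1 0 were called by limma (median -0.014). At an unadjusted p under 0.05 there were 0, against 3262 of all 19057 genes. Of 13 motile cilium genes 2 rose, the dynein genes Dnah11 (0.39, adjusted p = 0.0209) and Dnaic1 (0.34, adjusted p = 0.0036, limma). Foxj1 itself read 7.25, 7.31 and 7.35 against 7.39, 7.33 and 7.42 and was not called (0.076, adjusted p = 0.52, limma). The count of cilium genes called was 1 without oral tissue library 1, 2 or 3, without tooth germ library 2 or 3, and without litter 1 or 2, and 0 without litter 3.

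**Figure D4:**
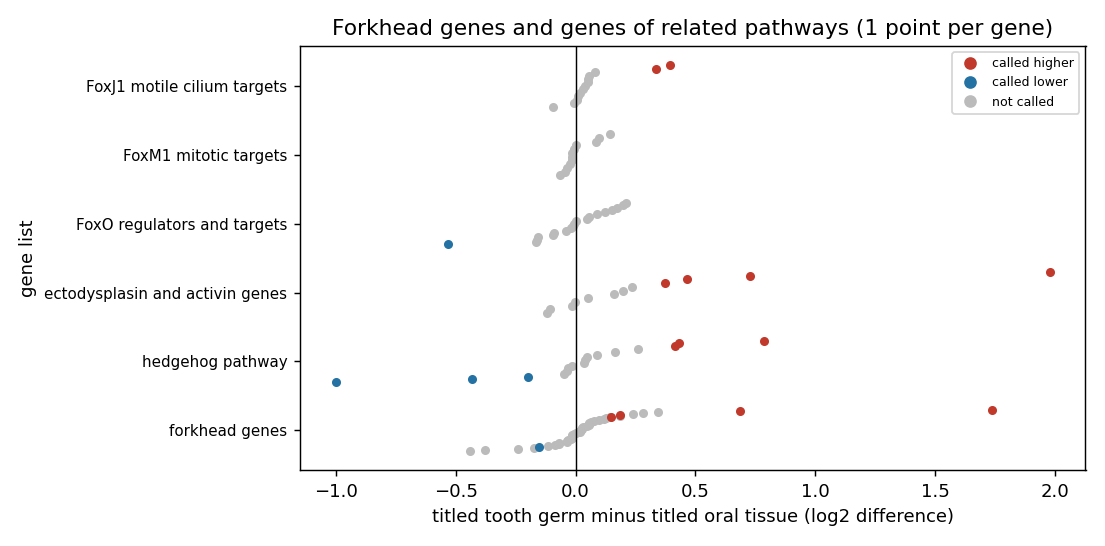
Difference of titled tooth germ minus titled oral tissue on the log2 scale for each forkhead gene and each gene of 5 related lists, 1 point per gene, red for called higher, blue for called lower and grey for not called. Inhba at 1.98 and Foxf1 at 1.74 lie farthest right and Cdon, which fell by 1.00, farthest left. No gene of the FoxM1 list is called, and calls are those without the litter as a block.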

How the data were processed

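The authors deposited 1 signal on a log2 scale for each of 45281 probes on 6 arrays, made with lumi 2.8.0 per the submitters' processing notes. Neither their background correction nor the kind of log scale is stated in the labels, and the scale may be log2 or a variance-stabilised form of it. Sorted columns differed by at most 0.000827, so the deposited table was already quantile normalized, which forces equal medians. Probes were named from the platform annotation: 34885 had 1 symbol, 18 several and 10378 none. The brightest probe of each gene was kept (19057 genes). Groups followed the titles.

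Tooth germ was compared with oral tissue in limma 3.58.1 under R 4.3.3 (lmFit, eBayes with trend, 4 residual degrees of freedom), two-sided, with Benjamini-Hochberg adjustment over all genes and calls at an adjusted p under 0.05. SEs are moderated. The test was also run on simulated data with independent noise and no litter effect. Shifts were planted only in genes above the median level and were larger than those of Foxf2, Foxi3 and Foxc2. That run does not show how calls behave for small shifts at dim probes. Named members were those called with or without the block, those above the upper quartile, and Foxf1, Foxf2 and Foxi3. The members and lists were chosen with earlier results of these data known.

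Same-numbered libraries share a litter per the labels. Deviations from group means correlated at 0.413, 0.233 and 0.266 within the pairs and between -0.267 and -0.0724 otherwise. Deviations cancel out within a group, so the negative values follow in part from the positive ones. A fit blocked on litter, with 2 residual degrees of freedom, was the paired alternative. The fits that left out libraries or litters did not use the pairing. The other alternatives are given in the closing section. No slide or scan information was used here, so no batch other than the litter was examined.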

Additional observations from a re-analysis of the deposited data

How the results depend on the processing

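Foxf1 and Foxe1 kept direction and call under all 17 alternatives, which were litter as a block or random effect, repeated quantile normalization, median centring, averaging of a gene's probes, removal of dim ones, eBayes without trend or with robust shrinkage, and leaving out each library or litter. Foxf1 and Foxe1 have 1 probe each, so averaging of probes could not change their differences. The deposited table was already quantile normalized, and repeated normalization and median centring returned their differences and adjusted p-values unchanged. No scaling moved the median of all genes by over 0.1. With the replicate block of litter 6 forkhead genes were higher and 3 lower, and it ended no forkhead call. With dim probes removed Foxf2 and Foxc2 were not among the genes tested, and 4 members were higher, Foxn3 now among them, and 0 lower. Without a trend Foxi3 was not called (0.19, adjusted p = 0.0847, limma), but Foxn3 was, and 5 members were higher. With the mean of all probes 5 were also higher. In both of these settings the 5 included a member of the other 25 described above. With litter as a random effect or with robust shrinkage 6 were higher, Foxn3 and Foxp4 now among them. Sgk1 was lost with the mean of all probes and without a trend, so 0 of the FoxO regulators and targets were called. Leaving out libraries or litters gave 2 to 4 members higher and 0 to 2 lower. Among the lists, 2 to 5 hedgehog genes, 0 to 1 of the FoxO regulators and targets and 0 to 2 cilium genes were then called. Foxf2 stood at 0.14 to 0.16 and Foxi3 at 0.16 to 0.23 in these fits. Foxp3, not called, ran from -0.046 to 0.0045 and turned positive without oral tissue library 1 (0.0045) and without tooth germ library 2 (0.0030). Dim probes and 3 arrays per group limit what could be detected.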
